A study of Mus musculus with 12 samples.

Results

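The 10 genes described here encode transcription factors and coactivators that hold smooth muscle cells (SMCs) in their contractile state or move them out of it: *Srf*, *Myocd*, *Mrtfa*, *Mrtfb*, *Mef2a*, *Mef2c*, *Mef2d*, *Klf4*, *Klf5*, and *Prrx1*. They were chosen by symbol, and all 10 were found among 52636 genes counted. Read counts came from RNA-seq of GFP+ SMCs sorted from the aortas of 12-week-old C57BL/6J mice, 3 GFPiSMC and 3 Tgfbr1/2iSMCKO, with a library of the ascending aorta and arch and a library of the descending thoracic aorta from each mouse (12 libraries in 4 groups of 3). GFPiSMC mice carry *Myh11-CreERT2*, a tamoxifen-inducible Cre driven by the promoter of the smooth muscle myosin heavy chain gene, and the *mT/mG* reporter, which turns on GFP in cells where Cre was active. Tgfbr1/2iSMCKO mice carry both of these and floxed alleles of *Tgfbr1* and *Tgfbr2*, the type I and type II receptors of TGF-β. Both genotypes were given tamoxifen. The labels give a course of 5 days, either 1 mg/d starting at an age of 4 weeks or 2 mg/d at 11 weeks, and do not tie either course to a library. The study's account of this profiling, soon after induction in mature aortas, points to the later course. The mouse line and the receptor deletion go together, so their effects cannot be told apart.

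SRF binds a short DNA element, the CArG box, in the promoters of contractile, cytoskeletal, and immediate early genes. Which of these it turns on depends on its partner. Myocardin (*Myocd*) is a coactivator restricted to smooth and cardiac muscle, and the related coactivators MRTF-A and MRTF-B (*Mrtfa*, *Mrtfb*) are held back by monomeric actin and enter the nucleus as actin polymerizes. Ternary complex factors (*Elk1*, *Elk3*, *Elk4*) compete with them for SRF and serve the immediate early genes. MEF2 proteins bind an AT-rich element and are restrained by class IIa histone deacetylases, while KLF4 and KLF5 are zinc finger factors linked to loss of the contractile state, KLF4 as a repressor of myocardin and its targets. TGF-β is a known inducer of contractile genes, so the comparison of the genotypes asks whether the RNA of these regulators differs when the SMCs lack the receptors.

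Promoter sequences of the members are shown first because they tell which of the factors carry, next to their own start site, the element that SRF or MEF2 binds. RefSeq promoter windows (build GRCm38.p6, 250 bases before to 50 after the transcription start) were at hand for 8 of the 10 genes, all but *Myocd* and *Klf5*. The CArG box was searched as CC and GG around 6 A or T bases, a pattern that reads the same way on both strands. It occurs in 535 of 32851 promoter windows (1.63%). Of the 8 members, only *Srf* itself holds it, with 2 boxes that begin 82 and 62 bases upstream of the start. The 250 bases before the start of *Srf* (chr17:46556163-46556412, minus strand) are given 5′ to 3′ with the CArG boxes in capitals.
*Srf*: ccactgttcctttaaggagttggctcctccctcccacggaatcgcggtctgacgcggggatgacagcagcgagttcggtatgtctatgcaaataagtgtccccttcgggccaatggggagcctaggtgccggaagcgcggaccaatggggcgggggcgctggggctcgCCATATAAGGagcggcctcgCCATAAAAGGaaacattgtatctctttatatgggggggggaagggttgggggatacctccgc

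The same box stands in the windows of 4 of 23 SRF target genes of muscle and cytoskeleton with a window at hand (2 of 14 contractile and 2 of 9 cytoskeletal genes). It is shown here with 10 bases on either side for *Vcl* (vinculin, chr14:20929161-20929190, plus strand), which differed between the genotypes, and for *Myl9* (myosin regulatory light chain, chr2:156775293-156775322, plus strand) and *Actg1* (cytoplasmic γ-actin, chr11:120348566-120348595, minus strand), which did not pass the test.
*Vcl*: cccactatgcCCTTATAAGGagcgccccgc
*Myl9*: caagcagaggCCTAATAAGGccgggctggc
*Actg1*: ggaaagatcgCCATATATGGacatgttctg

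The MEF2 site, also the same on both strands, occurs in 1047 of the 32851 windows (3.19%). Among the members it is in the windows of *Mef2a* itself (chr7:67372841-67372870, minus strand, across the start site) and of *Mrtfb*. Among the other Klf genes it is in that of *Klf2* (chr8:72318934-72318963, plus strand, beginning 118 bases upstream), the Klf gene with the largest fall between the genotypes described further on. The site is in capitals. A match of letters says nothing of whether a factor was bound.
*Mef2a*: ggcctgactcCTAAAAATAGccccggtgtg
*Klf2*: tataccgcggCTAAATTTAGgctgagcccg

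Libraries held 20467027 to 31392396 counts from 9208 to 20000 sorted cells. Of all genes, 22320 passed the filter on low counts, the 10 members among them, although *Klf5* had at most 21 counts in a library. The scale of levels is CPM, counts relative to the library's own total, after TMM scaling, the edgeR method that aligns libraries on the bulk of their genes. The scaling factors of the GFPiSMC libraries (0.9097 to 0.9909) and the Tgfbr1/2iSMCKO libraries (1.0087 to 1.0836) did not overlap. Markers of SMCs, 6 genes led by *Acta2* and *Tagln*, summed to 33588 to 47523 CPM, against 30.9 to 255 CPM for 8 fibroblast genes, 55 to 106 for 7 endothelial genes (mostly *Pecam1*), 5.68 to 18.3 for 7 macrophage genes, and 63.3 to 137 for 6 adipocyte genes (mostly *Fabp4*). *Tgfbr1* lay at 196 to 292 CPM in GFPiSMC and 198 to 295 CPM in Tgfbr1/2iSMCKO libraries, and *Tgfbr2* at 88.9 to 128 and 68.2 to 102 CPM. Neither passed the test (log2 fold changes 0.10, SE 0.12, and −0.26, SE 0.11, adjusted p 0.790 and 0.233). No macrophage gene (*Cd68* and *C1qa* nearest) or adipocyte gene (*Fabp4* and *Lep* nearest) was called by edgeR, with 1 of each list at an unadjusted p under 0.05. Of 7 fibroblast genes tested *Serpinf1* and *Col14a1* fell in Tgfbr1/2iSMCKO (−1.58 and −0.82, SE 0.30 and 0.20, adjusted p 0.00646 and 0.0316), where 3.23% of all genes were called lower. With counts summed per animal their adjusted p was 0.0471 and 0.185. Of the others 2 had values below 0 and 3 above 0 (up to 0.98 for *Dpt*), with a median of −0.12 over the 7, and the part of such cells in the results below was not tested. The counts of the receptor genes take in the whole gene and not the floxed part alone, so they do not check the deletion.

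Divided by the length of the annotated exons, *Myocd* stood at the top and *Klf5* at the bottom in every group. The medians over 12 libraries were 28.2 CPM per kb for *Myocd*, 16.5 for *Mef2c*, 12.4 for *Prrx1*, 11.4 for *Mef2a*, 8.90 for *Srf*, 6.33 for *Mef2d*, 5.44 for *Mrtfb*, 5.34 for *Klf4*, 1.36 for *Mrtfa*, and 0.0495 for *Klf5*. Between libraries the ranges of neighbors in that order overlapped, except for *Mrtfa* and *Klf5*. By its median, myocardin was thus the most abundant of these RNAs per length. Its range (13.9 to 53.5) lay above that of its DNA-binding partner *Srf* (8.26 to 10.8). The order depends on the length used, which joins all annotated exons (6.42 kb for *Myocd*, 15.7 kb for *Mef2c*). In CPM alone *Mef2c* had the higher median over 12 libraries (259 against 181). Of the myocardin-related pair *Mrtfb* was above *Mrtfa* in all libraries (3.44 to 7.12 against 0.784 to 2.30 CPM per kb).

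None of the 10 members passed an adjusted p of 0.05 between the genotypes over the 12 libraries by edgeR, where 5.03% of all genes tested did (1123 of 22320; 3.23% lower and 1.80% higher in Tgfbr1/2iSMCKO). The members' log2 fold changes ran from −1.35 to 0.40 with a median of −0.02, beside a median of 0.04 over all genes, and 1 member (*Klf4*) had an unadjusted p under 0.05, against 16.1% of all genes. Within the ascending aorta and arch 0 members were called (background 1.41%) with 0 at an unadjusted p under 0.05 (11.4% of all genes). Within the descending aorta 0 were called (background 1.72%) with 1 at an unadjusted p under 0.05 (10.7%). For the difference of the genotype effect between the segments 0 were called (background 0) with 0 at an unadjusted p under 0.05 (2.95%). DESeq2, which called 11.3% of the 17946 genes it gave an adjusted p over the 12 libraries, called 1 member, *Klf4*. It called 0 members within the ascending aorta and arch (background 5.06%), within the descending aorta (5.00%), and for their difference (0.0359%). With counts summed per animal over both segments edgeR called 0 members (background 1.86%), with 1 at an unadjusted p under 0.05. Groups of 3 libraries did not overlap for 3 members in the ascending aorta and arch (*Mef2d* higher, *Klf4* and *Klf5* lower in Tgfbr1/2iSMCKO, background 19.0%) and for 3 in the descending aorta (*Mrtfb* higher, *Srf* and *Klf4* lower, background 14.9%). Only *Klf4* did so in the same direction in each segment, as did 6.14% of all genes (3.92% lower).

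**Figure D1:**
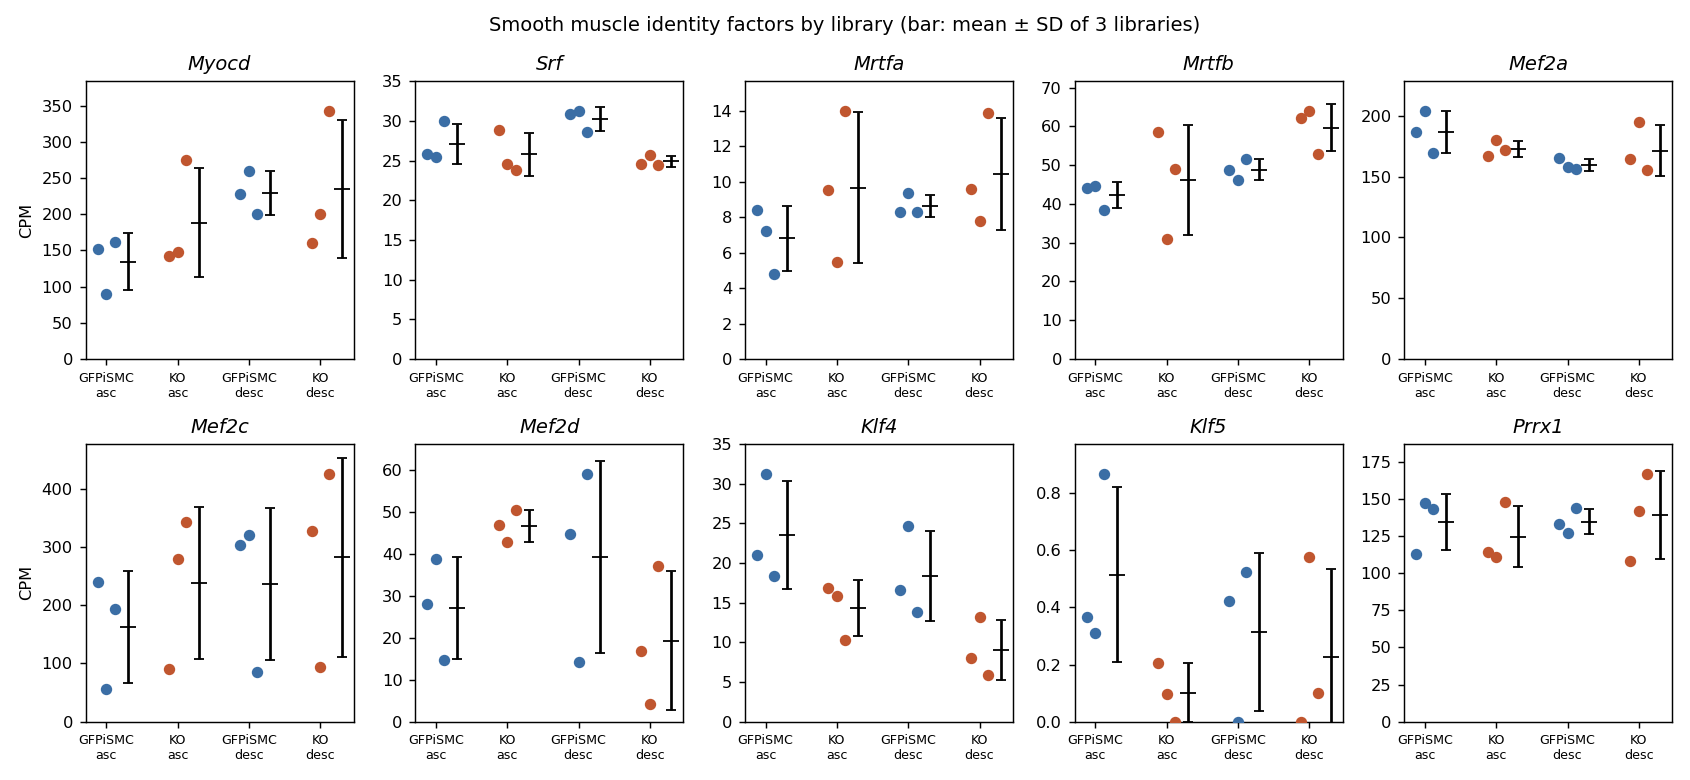
CPM (y axis) of each of the 10 factors in the 12 libraries, by genotype and segment (x axis; KO, Tgfbr1/2iSMCKO; asc, ascending aorta and arch; desc, descending aorta), with a point per library and the mean ± SD of 3 libraries beside it (drawn from 0 up). *Klf4* points of Tgfbr1/2iSMCKO lie below those of GFPiSMC in each segment, *Srf* and *Mef2a* points lie close together, and *Mef2c* and *Mef2d* points spread widely within groups.

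*Srf* (chr17:46548329-46556175, minus strand, GRCm38), the DNA-binding core of the system, varied little. In the ascending aorta and arch it measured 25.8, 25.5, and 30 CPM in GFPiSMC and 28.9, 24.6, and 23.9 CPM in Tgfbr1/2iSMCKO. In the descending aorta it measured 30.9, 31.3, and 28.6 CPM against 24.6, 25.7, and 24.5 CPM. The groups overlapped in the ascending aorta and arch and not in the descending aorta, where all Tgfbr1/2iSMCKO libraries were lower. The log2 fold change was −0.18 over 12 libraries (SE 0.12, 95% interval −0.44 to 0.09, adjusted p 0.587) and −0.28 in the descending aorta (SE 0.18, −0.67 to 0.11, adjusted p 0.690). From its lowest to its highest library *Srf* changed by a factor of 1.31. Its SD within groups was 0.11 on the log2 scale, and only 0.303% of 2644 genes with a mean level within 1.5-fold of its own had a smaller SD (their median was 0.35).

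*Myocd* (chr11:65176561-65269989, minus strand) measured 152, 89.5, and 162 CPM in GFPiSMC and 142, 148, and 275 CPM in Tgfbr1/2iSMCKO ascending libraries. In descending libraries it measured 228, 260, and 200 CPM against 161, 201, and 343 CPM. The genotypes overlapped in each segment, and Tgfbr1/2iSMCKO animal 3 had the highest level of all in both. The log2 fold change was 0.26 (SE 0.23, −0.24 to 0.76, adjusted p 0.699), in a fit that takes libraries as independent although each animal gave a library of each segment. Without Tgfbr1/2iSMCKO animal 3 it was −0.13 (adjusted p 0.814).

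The myocardin-related coactivators showed the same lack of a called difference. *Mrtfb* (chr16:13256481-13417529, plus strand) measured 44.1, 44.5, and 38.5 CPM in GFPiSMC and 58.6, 30.9, and 49.0 CPM in Tgfbr1/2iSMCKO ascending libraries, and 48.8, 46.1, and 51.5 CPM against 62.2, 64.0, and 52.8 CPM in descending libraries. It was higher in all Tgfbr1/2iSMCKO libraries of the descending aorta, by a log2 fold change of 0.29 (SE 0.22, −0.19 to 0.77, adjusted p 0.768), and overlapped in the ascending aorta. *Mrtfa* (chr15:81012281-81190757, minus strand) ranged from 4.79 to 9.36 CPM (median 8.28) in GFPiSMC and from 5.48 to 14 CPM (median 9.56) in Tgfbr1/2iSMCKO, a log2 fold change of 0.39 (SE 0.25, −0.14 to 0.92, adjusted p 0.524). Its 2 highest libraries, 14 and 13.9 CPM, were again those of Tgfbr1/2iSMCKO animal 3.

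The 3 MEF2 genes behaved unlike each other. *Mef2a* (chr7:67231163-67372858, minus strand) was as steady as *Srf*, with 156 to 204 CPM (median 167) in GFPiSMC and 155 to 195 CPM (median 170) in Tgfbr1/2iSMCKO. Its log2 fold change was −0.00 (SE 0.10, −0.21 to 0.21, adjusted p 0.998), the narrowest interval of the 10. *Mef2c* (chr13:83504034-83667080, plus strand) measured 239, 55.4, and 193 CPM in GFPiSMC and 90.9, 280, and 342 CPM in Tgfbr1/2iSMCKO ascending libraries, and 303, 320, and 85.9 CPM against 328, 93.1, and 426 CPM in descending libraries. Each group thus held a library at under 100 CPM and others well above it, so that *Mef2c* varied 7.69-fold between libraries. Its SD within groups (1.10 on the log2 scale) was above that of 99% of 814 genes of like level. The genotype difference, 0.40 (SE 0.46, −0.59 to 1.40, adjusted p 0.786), is correspondingly poorly determined.

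*Mef2d* (chr3:88142372-88172086, plus strand) measured 28, 38.8, and 14.6 CPM in GFPiSMC and 46.8, 42.8, and 50.3 CPM in Tgfbr1/2iSMCKO ascending libraries. In descending libraries it measured 44.6, 14.3, and 59.1 CPM against 16.8, 4.12, and 37 CPM. All Tgfbr1/2iSMCKO libraries were higher in the ascending aorta and arch, where the log2 fold change was 0.78 (SE 0.65, −0.63 to 2.19, adjusted p 0.737), whereas the groups overlapped in the descending aorta, where it was −1.02 (SE 0.65, −2.44 to 0.39, adjusted p 0.689). The difference of these effects, −1.80 (SE 0.92, −3.80 to 0.19), had an unadjusted p of 0.0724 and an adjusted p of 1. *Mef2d* overlaps an antisense gene, *1700113A16Rik*, with 398 to 938 counts against 100 to 1562 for *Mef2d*, and whether the counting kept strands apart is not given in the sources used here, so reads of the pair may not be separated. *Mef2a* also overlaps a gene on the other strand (*Lysmd4*, 321 to 1019 counts), as does *Mrtfa* (*Sgsm3*, 38 to 349 counts). *Mef2c*, *Myocd*, *Klf4*, and *Klf5* overlap no annotated gene.

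*Klf4* (chr4:55527143-55532466, minus strand), the repressor of the contractile program, came closest to the threshold. In the ascending aorta and arch *Klf4* measured 21, 31.3, and 18.4 CPM in GFPiSMC and 16.9, 15.9, and 10.3 CPM in Tgfbr1/2iSMCKO. In the descending aorta it measured 16.6, 24.7, and 13.8 CPM against 7.99, 13.2, and 5.90 CPM. All Tgfbr1/2iSMCKO libraries lay below all GFPiSMC libraries of the same segment, although the ranges of the genotypes overlapped once the segments were pooled (13.8 to 31.3 against 5.90 to 16.9 CPM). The log2 fold change over 12 libraries was −0.87 (SE 0.25, −1.40 to −0.34), with an unadjusted p of 0.00355 and an adjusted p of 0.0627. It was −0.71 (SE 0.36, adjusted p 0.487) in the ascending aorta and arch and −1.03 (SE 0.36, adjusted p 0.260) in the descending aorta, and these 2 values differed by −0.31 (SE 0.50, −1.40 to 0.78).

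Whether *Klf4* is called depends on the processing. Its adjusted p was 0.0109 by DESeq2, 0.0303 with the number of sorted cells in the fit, and 0.0448 without Tgfbr1/2iSMCKO animal 2, but 0.297 with the counts summed per animal, 0.106 when libraries were scaled by their totals alone, and 0.307 without GFPiSMC animal 2. The log2 fold change stayed between −1.09 and −0.61 in all 16 alternatives.

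*Klf5* (chr14:99298691-99315036, plus strand) was barely detected, with 0 to 21 counts in GFPiSMC and 0 to 14 in Tgfbr1/2iSMCKO libraries. In the ascending aorta and arch it lay at 0.309 to 0.868 CPM in GFPiSMC and at 0 to 0.206 CPM in Tgfbr1/2iSMCKO without overlap, and in the descending aorta the groups overlapped. It had 0 counts in 3 libraries, where a count of 0 allows up to 3 counts, or 0.0966 to 0.124 CPM, and this limit covers counting error only. The log2 fold change of −1.35 (SE 0.99, −3.49 to 0.79, adjusted p 0.611) was not detectable as a difference at this depth. *Prrx1* (chr1:163245119-163313710, minus strand), a homeobox factor of mesenchymal cells, ranged from 113 to 147 CPM (median 138) in GFPiSMC and from 108 to 167 CPM (median 128) in Tgfbr1/2iSMCKO. Its log2 fold change was −0.03 (SE 0.13, −0.31 to 0.25, adjusted p 0.952).

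**Figure D2:**
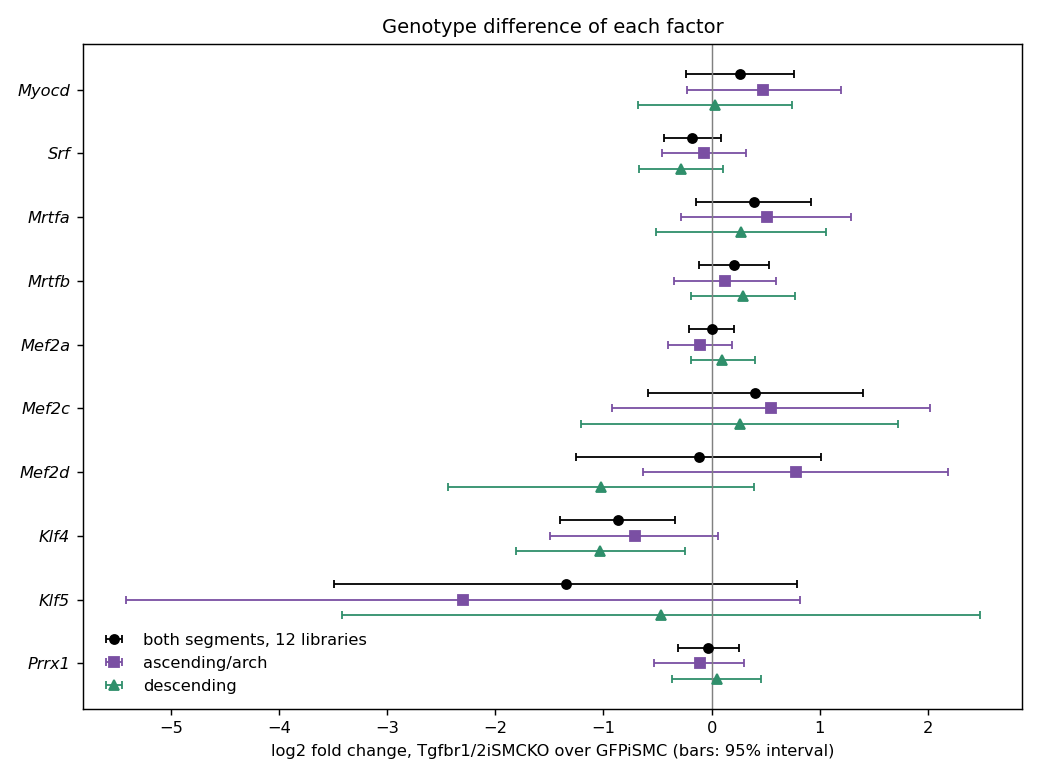
Log2 fold change of Tgfbr1/2iSMCKO over GFPiSMC (x axis, with 95% intervals as bars) for each factor (y axis), over 12 libraries and within each segment. Over 12 libraries only the interval of *Klf4* (−1.40 to −0.34) leaves out 0. That of *Mef2a* (−0.21 to 0.21) is the narrowest and that of *Klf5* (−3.49 to 0.79) the widest.

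Between segments, with the descending aorta set against the ascending aorta and arch, 0 of 10 members were called over both genotypes (background 0.797%), in GFPiSMC (0.376%), or in Tgfbr1/2iSMCKO (0.112%) by edgeR, with 1, 1, and 0 members at an unadjusted p under 0.05 (5.58%, 5.98%, and 3.68% of all genes). DESeq2 also called 0 (background 1.98%, 1.54%, and 0.872%). Yet 3 members lay on the same side in all 6 animals, as did 5.36% of all genes (1.98% higher and 3.39% lower in the descending aorta). This count was made after the values were seen. *Myocd* was higher in the descending aorta in 6 of 6 animals, by a log2 difference of 0.54 (SE 0.23, 0.05 to 1.04, unadjusted p 0.0344, adjusted p 0.776). *Mrtfb* was also higher in 6 of 6, by 0.29 (SE 0.15, −0.04 to 0.61, adjusted p 0.992), and *Klf4*, the repressor, was lower in 6 of 6, by −0.51 (SE 0.25, −1.04 to 0.02, adjusted p 0.936). With the animal as a block the adjusted p was 0.383 for *Myocd*, 0.850 for *Mrtfb*, and 0.395 for *Klf4*. In GFPiSMC the *Myocd* levels of the segments did not overlap (89.5 to 162 against 200 to 260 CPM), but fewer cells were sorted there from the descending aorta (9208 to 16114 against 12526 to 20000). With sorted cells in the fit the *Myocd* difference between segments in GFPiSMC was 0.39 (SE 0.25, adjusted p 0.936), against 0.77 (SE 0.33, adjusted p 0.785) without. Over both genotypes it was 0.38 with sorted cells in the fit (SE 0.16, adjusted p 0.604).

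The number of sorted cells per library, recorded in the labels, was examined after the values were seen. Over its range, about a doubling, *Mef2c* and *Myocd* were lower in libraries of more cells. The 3 libraries of 20000 cells, which are 1 GFPiSMC and 2 Tgfbr1/2iSMCKO libraries, held *Mef2c* at 55.4, 90.9, and 93.1 CPM. The 5 libraries of 9208 to 12526 cells held it at 239 to 426 CPM, and the 4 of 14360 to 16292 cells at 85.9 to 328 CPM. *Myocd* ran from 152 to 343 CPM (median 260) in the libraries of fewest cells and from 89.5 to 201 CPM (median 142) in those of 20000. With segment and genotype in the fit, the log2 change per doubling of cells was −2.39 for *Mef2c* (SE 0.41, −3.27 to −1.51, adjusted p 0.00225) and −0.92 for *Myocd* (SE 0.23, −1.42 to −0.42, adjusted p 0.0157). These were the 2 called of 10 members, where 18.0% of all genes were called (4010 of 22320), so the share is near the background.

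*Srf* (0.01, SE 0.16), *Prrx1* (0.01, SE 0.18), *Mef2a* (0.16, SE 0.12), and *Klf4* (0.26, SE 0.34) had estimates nearer 0 with the number of cells. *Mrtfb* had 0.29 (SE 0.20), *Mef2d* −0.33 (SE 0.84), and *Mrtfa* −0.55 (SE 0.32). *Klf5*, with its few counts, had the largest estimate, of opposite sign to that of *Mef2c*, and did not pass (3.18, SE 1.39, unadjusted p 0.0404, adjusted p 0.137). The value for *Mef2c* was −1.44 (adjusted p 0.117) without the 3 libraries of 20000 cells, and −2.65 (adjusted p 0.0721) and −2.68 (adjusted p 0.0586) in GFPiSMC and in Tgfbr1/2iSMCKO libraries alone. That for *Myocd* was −0.53 (adjusted p 0.249) without Tgfbr1/2iSMCKO animal 3, −0.89 (adjusted p 0.0822) without GFPiSMC animal 2, and −0.88 (adjusted p 0.215) without the libraries of 20000 cells. With the number of cells in the fit, the genotype difference of *Mef2c* was 0.77 over 12 libraries (SE 0.25, 0.22 to 1.33, adjusted p 0.0690). That of *Myocd* was 0.37 (SE 0.16, 0.03 to 0.71, adjusted p 0.155). In that fit over 12 libraries 12.2% of all genes were called between the genotypes, and *Klf4* was the 1 member called (−0.94, SE 0.25, adjusted p 0.0303). Within the descending aorta, with the number of cells in the fit, *Mef2c* was called (1.35, SE 0.33, 0.62 to 2.07, adjusted p 0.0481). The share of all genes called in that comparison is not given here. Without the number of cells *Mef2c* had 0.26 there (SE 0.67, −1.21 to 1.72) and was not called. In the ascending aorta and arch, with the number of cells, *Mef2c* had 0.30 (SE 0.30) and was not called. What links cell number to these levels was not tested.

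**Figure D3:**
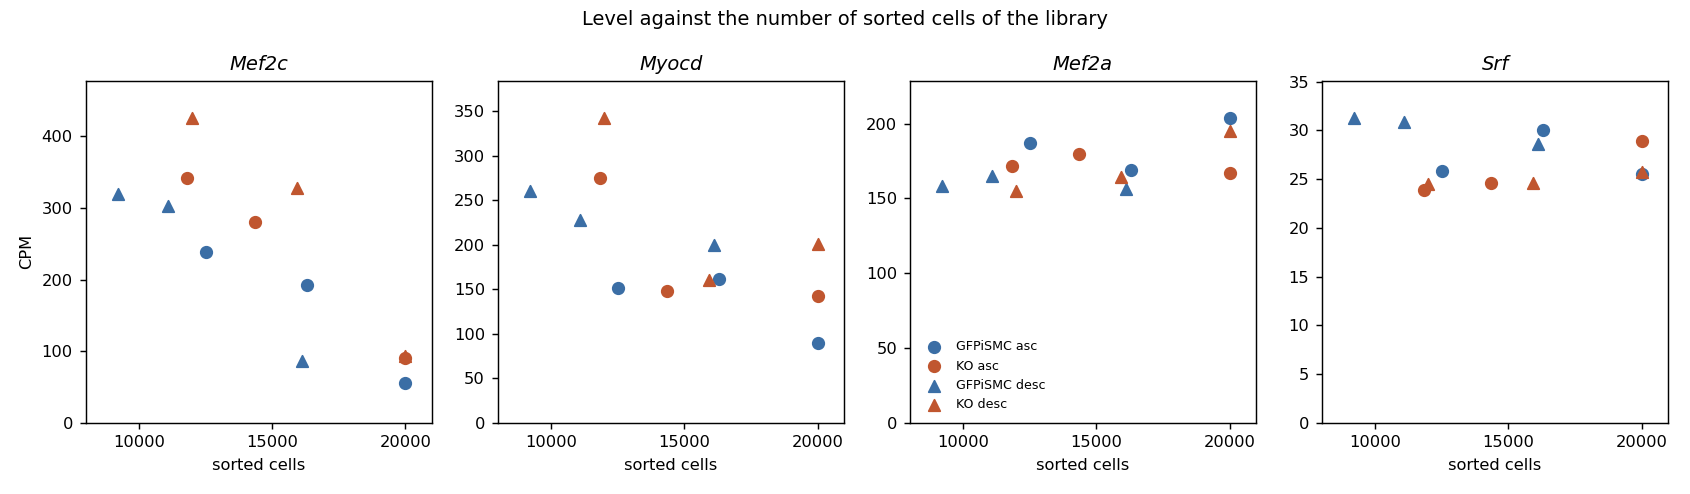
CPM (y axis) of *Mef2c*, *Myocd*, *Mef2a*, and *Srf* against the number of cells sorted for the library (x axis), a point per library, with color for genotype and shape for segment (KO, Tgfbr1/2iSMCKO). *Mef2c* is at 55.4 to 93.1 CPM in the 3 libraries of 20000 cells and at 239 CPM or above in the 5 of at most 12526, while *Srf* stays between 23.9 and 31.3 CPM throughout.

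The genes whose log2 levels followed a member most closely over the 12 libraries were taken from 6737 genes with a mean of at least 20 CPM. All points share the scaling of their library, and the values are descriptions. *Myocd* was followed by *Uimc1* (Pearson r 0.920), *Epb41l5* (0.906), and *Tspan9* (0.905), all of which fell with cell number as well. *Srf* was followed by *Fbxl2* (0.862), *St3gal5* (0.842), and *Gatad2b* (0.820). *Klf4* was followed by *Rasa1* (0.941), *Wdr26* (0.926), and *Rnase4* (0.911). Between members, *Myocd* and *Mef2c* had an r of 0.649 and *Myocd* and *Klf4* an r of −0.611, while *Myocd* and *Srf* had 0.057.

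The genes around these factors did include some that changed between the genotypes. Of 12 partners of SRF and myocardin, 1 was called over 12 libraries, where 5.03% of all genes were called. *Csrp2*, a LIM protein that joins SRF and GATA factors on smooth muscle promoters, fell from 1086 to 1457 CPM in GFPiSMC to 195 to 334 CPM in Tgfbr1/2iSMCKO, by 2.21 on the log2 scale (SE 0.12, adjusted p 1.40e-07). Its relative *Csrp1* had the opposite sign without passing the test, 41.4 to 116 CPM against 81.8 to 246 CPM (1.10 on the log2 scale, SE 0.31, adjusted p 0.0655). *Gata4* (2.67, SE 0.73, adjusted p 0.0526, at most 7.91 CPM) and *Pias1* (0.33, SE 0.09, adjusted p 0.0584) were also higher without passing. *Abra* was lower without passing (−0.63, SE 0.25, adjusted p 0.209). The list had a median log2 fold change of −0.14, with 8 values below 0 and 4 above. DESeq2 called 1 of the 12 lower and 3 higher, where it called 11.3% of all genes. None of the 3 ternary complex factors (*Elk4* −0.22, *Elk3* −0.37, *Elk1* 0.19) and none of the 4 class IIa histone deacetylases (−0.15 for *Hdac5* to 0.20 for *Hdac7*) were called by edgeR or by DESeq2, and 0 of each had an unadjusted p under 0.05.

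Of 15 other Klf genes 13 were tested and 2 were called in opposite directions, where 5.03% of all genes were called. *Klf2*, a flow-responsive factor best known from endothelium, fell from 8.96 to 24.9 CPM in GFPiSMC to 2.19 to 5.49 CPM in Tgfbr1/2iSMCKO, by 2.13 on the log2 scale (SE 0.32, adjusted p 0.00108). *Klf15*, a repressor of myocardin and MEF2 activity in heart and smooth muscle, rose from 13.8 to 20.5 CPM to 24.3 to 42.4 CPM (1.05, SE 0.17, adjusted p 0.00192). Neither pair of ranges overlapped. *Klf6* had 559 to 1117 CPM against 268 to 561 CPM (−0.72, SE 0.20, adjusted p 0.0628). Of endothelial markers, *Cdh5* (VE-cadherin) was the 1 of 7 called and was higher in Tgfbr1/2iSMCKO, at 0 to 0.513 CPM in GFPiSMC against 0.497 to 2.71 CPM (adjusted p 0.0250). Of the 7, 6 had values above 0, and *Pecam1*, which makes up most of their sum, had −0.13 (SE 0.16). The part of endothelial cells in the *Klf2* levels was not tested.

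The contractile targets of SRF changed without a common direction. Most cytoskeletal (8 of 10) and immediate early targets (7 of 10) had values below 0. Of 17 contractile genes 3 fell and 1 rose, with a median log2 fold change of 0.12. Of all genes tested 3.23% were called lower and 1.80% higher. *Vcl* (vinculin, −0.46, SE 0.10, adjusted p 0.0164), *Kcnmb1* (the β1 subunit of the BK potassium channel, −0.42, SE 0.08, adjusted p 0.00752), and *Cald1* (caldesmon, −0.34, SE 0.08, adjusted p 0.0228) fell. *Mylk*, the myosin light chain kinase, rose from 1515 to 1863 CPM to 2060 to 2479 CPM (0.42, SE 0.08, adjusted p 0.00682). With counts summed per animal none of these 4 passed, with adjusted p from 0.144 to 0.286, and each lost its call without at least 1 of the 6 animals (adjusted p up to 0.0614 for *Mylk* and 0.140 for *Cald1*). With libraries scaled by their totals alone *Kcnmb1*, *Vcl*, and *Cald1* lost their calls (adjusted p 0.0902, 0.104, and 0.156). *Mylk* kept its call in that setting (0.54, adjusted p 0.000767). *Cald1* also lost its call with no filter on low counts (adjusted p 0.0664) and without segment in the fit (0.0535). *Acta2* (−0.23, SE 0.10, adjusted p 0.264), *Tagln* (−0.32, SE 0.09, adjusted p 0.0699), and *Myh11* (0.24, SE 0.13, adjusted p 0.394) did not pass. Of 10 cytoskeletal targets 2 fell, *Tpm4* (−0.68, SE 0.09, adjusted p 0.000708) and *Myh9* (−0.63, SE 0.11, adjusted p 0.00411), and 0 rose, with a median of −0.35. With counts summed per animal *Tpm4* was kept (adjusted p 0.0277) and *Myh9* was not (adjusted p 0.101).

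None of the 10 immediate early genes was called by edgeR, though their median was −1.04 and 5 had an unadjusted p under 0.05. *Egr1*, 49 to 144 CPM in GFPiSMC and 39.9 to 71.5 CPM in Tgfbr1/2iSMCKO, came nearest (−0.89, SE 0.25, adjusted p 0.0582), followed by *Egr2* (−1.86, SE 0.54, adjusted p 0.0683), and *Fos* spanned 18.2 to 222 CPM in GFPiSMC alone (−1.29, SE 0.62, adjusted p 0.332). DESeq2 called 5 of the 10, all lower, among them *Egr1* (adjusted p 0.0132), where it called 6.35% of all genes lower. With sorted cells in the fit 4 were called, all lower, where 12.2% of all genes were called in either direction. With counts summed per animal 1 was called, *Egr2* (adjusted p 0.0400), beside 1.86% of all genes. These genes also respond to cell isolation, and the part of digestion and sorting in their levels was not tested.

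Markers and regulators of modulated SMCs did not rise together. Of 12 marker genes 4 fell and 0 rose, with a median of −0.65, where 3.23% of all genes were called lower and 1.80% higher. *Mgp*, matrix Gla protein, fell from 1051 to 1500 CPM to 242 to 411 CPM (−1.96, SE 0.13, adjusted p 1.31e-06), *Myh10*, the nonmuscle myosin IIB of immature SMCs, fell by 1.16 on the log2 scale (SE 0.14, adjusted p 0.000183), and *Fn1* and *Col8a1* fell by 1.70 (SE 0.36, adjusted p 0.0137) and 2.00 (SE 0.37, adjusted p 0.00507). *Fn1* lost its call without either of animals 1 and 2 of each genotype (adjusted p 0.0502 to 0.0995) and by limma (adjusted p 0.0530). These 4 encode matrix proteins and a myosin, and several are known TGF-β responders. Of 12 further transcription factors linked to mesenchymal or modulated cells, *Foxf1* rose, from 15.5 to 32.4 CPM to 31.7 to 46 CPM (0.84, SE 0.17, adjusted p 0.0112), and 0 fell. *Foxf1* lost its call with counts summed per animal (adjusted p 0.117), without Tgfbr1/2iSMCKO animal 1 (0.0714), and without GFPiSMC animal 3 (0.0880). *Twist1* (−0.17, SE 0.22), *Zeb1* (−0.02, SE 0.14), and *Tcf21* (0.54, SE 0.36) were not called. *Sox9* (0.71, SE 0.25, adjusted p 0.148), *Zeb2* (0.59, SE 0.24, adjusted p 0.230), and *Mef2b* (1.02, SE 0.38, adjusted p 0.176) were higher and *Foxc1* (−0.41, SE 0.17, adjusted p 0.229) lower without passing. Of the 12, 7 had values above 0 and 5 below, with a median of 0.26. An unadjusted p under 0.05 was reached by 5, against 16.1% of all genes. With sorted cells in the fit 2 were called higher and 1 lower, where 12.2% of all genes were called.

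Between segments, *Sox9*, *Prrx2*, and *Runx2* of those mesenchymal factors (3 of 12) and *Gata4* of the SRF partners (1 of 12) were called, where 0.797% of all genes were called. *Sox9* averaged 32.8 ± 12 CPM (SD, n = 3) in the ascending aorta and arch and 7.12 ± 1.35 CPM in the descending aorta of GFPiSMC, and 39.4 ± 9.77 against 16 ± 4.89 CPM in Tgfbr1/2iSMCKO (log2 difference −1.75, SE 0.26, adjusted p 0.00428). *Prrx2*, the paralog of *Prrx1*, was lower in the descending aorta by 1.84 (−1.84, SE 0.24, adjusted p 0.00196), whereas *Prrx1* differed by 0.08 (SE 0.13, −0.20 to 0.36, adjusted p 0.999). *Gata4*, a cardiac and outflow tract factor and SRF partner, was at 0.591 ± 0.158 and 3.68 ± 3.67 CPM in the ascending groups and at 0 to 0.0414 CPM on average in the descending groups (adjusted p 0.00156). *Runx2* (−1.62, SE 0.30, adjusted p 0.0236) lost its call with the animal as a block (adjusted p 0.0670). Summed fibroblast markers were also lower, at 117 to 255 CPM in the ascending and 30.9 to 106 CPM in the descending libraries. Of 7 tested 2 were called, *Lum* and *Dcn*, 6 had values below 0, and *Serpinf1* was above 0 (15.1 and 6.34 CPM on average in the ascending and 33.1 and 8.82 CPM in the descending groups of GFPiSMC and Tgfbr1/2iSMCKO), and their part in these differences was not tested. In bulk libraries fewer cells of a type and less RNA per cell cannot be told apart.

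**Figure D4:**
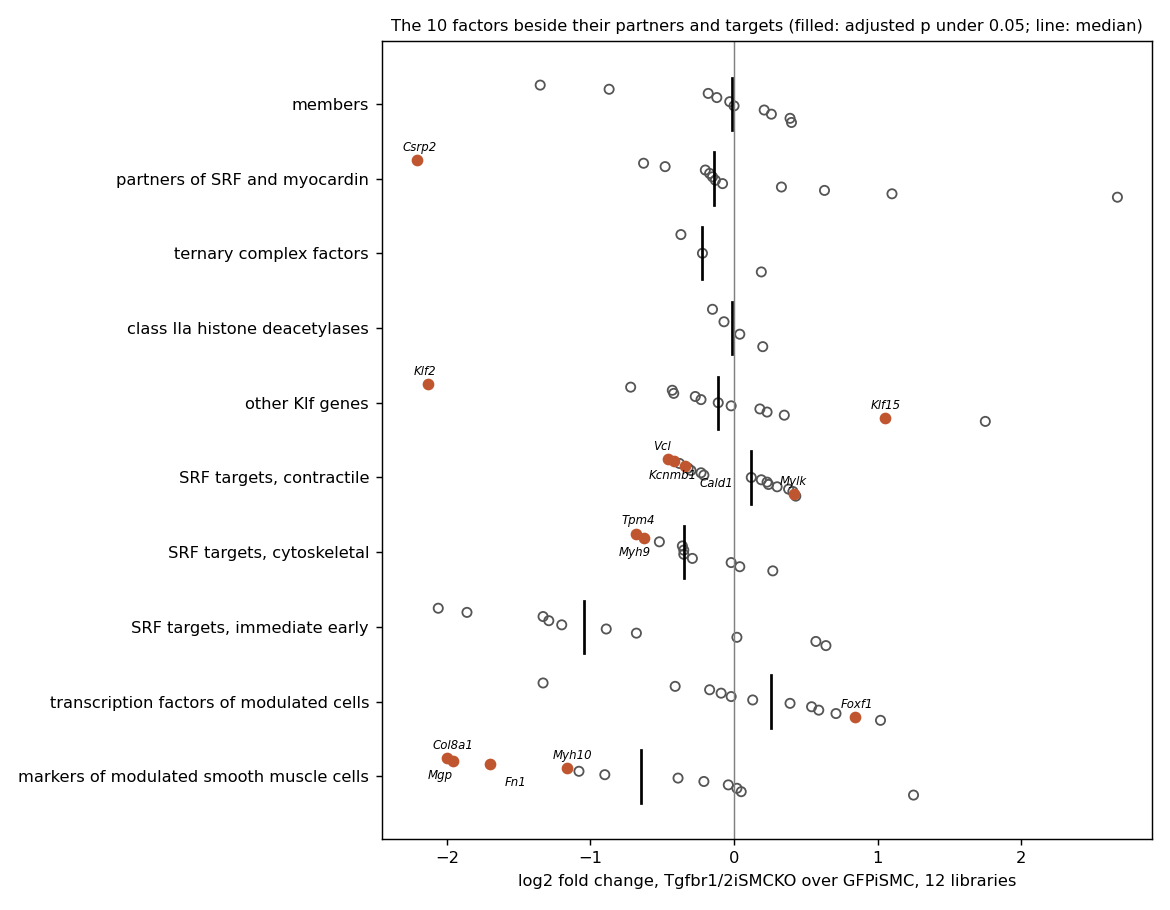
Log2 fold change of Tgfbr1/2iSMCKO over GFPiSMC over 12 libraries (x axis) for each gene of the lists named on the y axis, with filled and named points for an adjusted p under 0.05 and a vertical line at the median of the list. The top row holds the 10 factors (members), with no filled point and a median of −0.02. Their partners and targets include filled points such as *Csrp2* at −2.21 and *Klf15* at 1.05.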

How the data were processed

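SMC RNA of 12 libraries was sequenced, and the deposited file holds whole-number read counts per gene. By the study's methods and the submitters' processing notes, the authors trimmed reads with Trim Galore 0.5.0, mapped them to GRCm38 (mm10) with HISAT2 2.1.0, and quantified GENCODE M15 genes with StringTie 1.3.3b. The step from StringTie to counts is not given in the sources used here. Symbols, loci, and exon lengths came from GENCODE M21 on the same build. Equal numbers within a genotype were read as the 2 segments of 1 animal.

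Counts were fitted with edgeR 4.0.16 in R 4.3.3 (filterByExpr on 4 groups, TMM, quasi-likelihood test), with segment and genotype as terms or with 4 group means, and adjusted by Benjamini-Hochberg over all 22320 genes tested. A gene was called at an adjusted p under 0.05. SE is the log2 fold change over the root of F, and intervals are 95%. The common biological coefficient of variation was 0.442. Steps were tested on simulated counts. Alternatives were DESeq2 1.42.0, limma 3.58.1 (voom, animal as random effect), other scalings and filters, counts summed per animal, replicate or animal blocks, and each animal left out. An exact permutation test of 3 animals against 3 cannot go below a p of 0.1. The animal pairs the segments by design. The libraries of an animal correlated, after removal of group means, at 0.187, −0.242, and 0.024 (GFPiSMC) and 0.061, 0.377, and 0.661 (Tgfbr1/2iSMCKO) over 9210 genes.

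The 10 genes, the gene lists, and the tests were chosen with earlier results of these data known. All 10 members are named. From each list, up to 4 genes called in a comparison of genotype or segment are named, or, where none was called, the 2 of smallest p between the genotypes. Other list genes (*Myh11*, *Csrp1*, *Pias1*, *Abra*, *Klf6*, *Elk1*, *Twist1*, *Zeb1*, *Tcf21*, *Zeb2*, *Mef2b*, *Foxc1*, *Myl9*, *Actg1*, *Fos*, and those named for sorted cells) were added after their values were seen. For *Myocd*, *Srf*, and *Klf4* the 3 genes of highest Pearson r with a mean of at least 20 CPM are named.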

Additional observations from a re-analysis of the deposited data

How the results depend on the processing

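Of the 10 factors, 0 were called in each of the 7 comparisons of genotype and segment, and the other settings also gave 0 apart from the following. Over 12 libraries *Klf4* made the count 1 by DESeq2, with the replicate block, and with sorted cells in the fit, and leaving out each animal gave 0 to 1. In the descending aorta sorted cells in the fit made it 1 (*Mef2c*). For sorted cells, itself chosen after the data were seen, the count of 2 became 1 to 2 with an animal left out and 0 without the libraries of 20000 cells and in each genotype alone. The blocked *Klf4* value was −0.88 (adjusted p 0.0124). Libraries of the same number in the 2 genotypes correlated from −0.527 to 0.216. The 2 segments of a GFPiSMC animal, paired by design, gave −0.242 to 0.187, so such values cannot tell whether the numbers mark a shared batch. DESeq2, with 11.3% of all genes called against 5.03% by edgeR, called 4 partners of SRF in place of 1, 5 other Klf genes in place of 2, 3 cytoskeletal targets in place of 2, 2 endothelial genes in place of 1, and 5 immediate early genes in place of 0. The animal block changed 1 other named call, *Runx2*.

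Directions turned for *Mef2a*, *Mef2d*, *Prrx1*, and *Tgfbr1*, with estimates near 0, and for *Myocd* and *Mef2c* where an animal was left out. *Mef2a*, at −0.00, took 0.00 by DESeq2, RLE factors, and no filter, 0.12 by library size, 0.01 by the stricter filter and summed counts, and −0.06 to 0.03 without an animal. *Mef2d* took 0.01 by summed counts and −0.47 to 0.19 without an animal. *Prrx1* took 0.09 by library size and −0.20 to 0.08 without an animal. With an animal left out *Myocd* took −0.13 to 0.45, *Mef2c* −0.00 to 0.70, and *Tgfbr1* −0.00 to 0.20, each lowest without Tgfbr1/2iSMCKO animal 3. *Mef2c* in the descending aorta took −0.19 to 0.67, below 0 without animal 3 of either genotype. The cause was not tested. Library size in place of TMM moved the median of all genes from 0.04 to 0.16, so its signs for values near 0 follow that shift.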

Other observations

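Genes around the 10 factors also moved with the number of sorted cells, a comparison chosen after the data were seen. Of 17 contractile SRF targets 8 were lower and 1 was higher in libraries of more cells. Of 6 smooth muscle markers, all of them among these 17, 4 were lower, and of 10 cytoskeletal targets 3 were lower, where 18.0% of all genes were called in either direction. For genotype the same fit called 12 contractile genes (7 lower and 5 higher), 3 smooth muscle markers, and 4 cytoskeletal targets, where 12.2% of all genes were called. The largest values per doubling of cells among the contractile genes were those of *Lmod1*, leiomodin (−1.67, SE 0.25, adjusted p 0.00128), *Smtn*, smoothelin (−1.45, SE 0.26, adjusted p 0.00301), and *Tpm1*, tropomyosin (−1.20, SE 0.11, adjusted p 0.000258). *Cnn1*, calponin, had −1.12 (SE 0.10, adjusted p 0.000258). *Vcl* had the opposite sign (0.35, SE 0.10, adjusted p 0.0287).

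Of 12 partners of SRF and myocardin 2 were lower and 1 was higher in libraries of more cells. Of 4 class IIa histone deacetylases 2 were lower, where 18.0% of all genes were called in either direction. The partner that was higher was *Gata6* (0.50 per doubling, SE 0.14, adjusted p 0.0228). *Smarca4*, the ATPase of the BAF chromatin remodeling complex, had −2.61 per doubling (SE 0.33, adjusted p 0.000659), close in size to *Mef2c*, and *Csrp1* had −1.55 (SE 0.18, adjusted p 0.000492). The MEF2 repressors *Hdac5* and *Hdac4* had −1.11 (SE 0.25, adjusted p 0.00888) and −1.07 (SE 0.29, adjusted p 0.0232). With sorted cells in the fit, the genotype difference of *Csrp1* was higher and passed (adjusted p 3.28e-05, against 0.0655 without it). Leaving out Tgfbr1/2iSMCKO animal 3 lowered the number of genes called for sorted cells from 4010 to 949, and leaving out the 3 libraries of 20000 cells lowered it to 780. In GFPiSMC libraries alone 98 genes were called by edgeR and in Tgfbr1/2iSMCKO libraries alone 0, with 4650 there at an unadjusted p under 0.05.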
